A study of Mus musculus with 27 samples.

Results

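The mitochondrial genome of the mouse carries 37 genes, and all of them were listed in the count tables, among 46078 genes in all. They were taken as every gene that lies on chromosome M in the GRCm38 annotation (GENCODE release M21), with symbols that begin with mt-, a rule that uses no expression value. Of the 37 genes, 13 encode proteins, 2 encode the ribosomal RNAs and 22 encode transfer RNAs. RNA-Seq was performed on scrapings of the distal ileal epithelium from 27 male C57BL/6 mice on postnatal day 56, with no transgene or deletion in any group. TCDD (2,3,7,8-tetrachlorodibenzo-p-dioxin, a ligand of the aryl hydrocarbon receptor) in sesame oil was given by gavage once every 4 days for 28 days at 30, 10, 3, 1, 0.3, 0.1, 0.03 or 0.01 µg/kg, and vehicle mice received sesame oil. Each of the 9 groups held 3 mice, named below by their numbers in the labels, and the study intended to find genes of the ileum that respond to dose.

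Mitochondrial DNA is a small circular genome that is transcribed from both strands as long precursors, from which the mRNAs, rRNAs and tRNAs are cut out. Its proteins are core subunits of respiratory complexes I, III, IV and V. Complex II and all other subunits, and every protein factor that copies, transcribes or translates this genome, are encoded in the nucleus. Absorptive cells of the ileum depend on respiration to drive the sodium gradient that takes up bile acids and nutrients. Fragments of mitochondrial DNA have also been inserted into nuclear chromosomes, where they are annotated as pseudogenes.

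The 13 protein coding genes lie on the plus strand of chromosome M in 12 cases, with mt-Nd6, a complex I subunit, on the minus strand. Both rRNA genes and 14 tRNA genes are on the plus strand and 8 tRNA genes on the minus strand. The genes are packed closely, and 9 neighbouring pairs share bases. The longest overlap joins the complex V genes mt-Atp8 and mt-Atp6 over 43 bases of the same strand. It is shown from the GENCODE transcripts of GRCm38 (chrM:7927-7969) because a read within it lies in both genes, with the start codon of mt-Atp6 and the stop codon of mt-Atp8 in capitals.
mt-Atp8 and mt-Atp6 overlap: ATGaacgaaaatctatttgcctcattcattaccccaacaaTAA

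Opposite strands meet where mt-Nd5 and mt-Nd6 share 14 bases. Start codons other than atg occur in 4 mRNAs, gtg in mt-Nd1, ata in mt-Nd2, att in mt-Nd3 and atc in mt-Nd5. The mRNAs of mt-Co3, mt-Nd4 and mt-Cytb end 1 base past a whole number of codons, since their stop codon is completed only when the tail is added.

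Several of these genes have near-identical copies in the nuclear genome. Every window of 50 bases of each mitochondrial gene was searched for in all other GENCODE transcripts, on the same build, and 10 of the 37 genes had at least 1 window in a nuclear gene. Of the nuclear genes found, 7 lie in a row at chr1:24611535-24616197, on the minus strand, and hold parts of mt-Co1, mt-Co2, mt-Atp6, mt-Co3, mt-Nd3, mt-Nd4l and mt-Nd4. Their spacing equalled that on chromosome M for 5 of the 6 neighbouring pairs. A further 3 lie together on chromosome 2.

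The mt-Co2 transcript, for the second subunit of complex IV, matched the chromosome 1 pseudogene Gm28661 at 681 of 681 bases compared. Their first 48 bases (chrM:7013-7060 on the plus strand and chr1:24615518-24615565 on the minus strand) are given to show that a read from one also aligns to the other, with the start codon in capitals.
mt-Co2: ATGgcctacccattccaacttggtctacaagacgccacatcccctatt
Gm28661: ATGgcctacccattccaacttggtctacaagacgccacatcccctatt

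The complex I gene mt-Nd3 matched Gm28438 at 344 of 345 bases, and the single difference, T3C, lies at the third base of the start codon (positions are counted from 1 at the first base of the mitochondrial gene, whose base is given first). It is in capitals in the first 48 bases of the pair (chrM:9459-9506 and chr1:24613072-24613119).
mt-Nd3: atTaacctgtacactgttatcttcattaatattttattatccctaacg
Gm28438: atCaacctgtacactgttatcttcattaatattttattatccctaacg

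For mt-Co1, which encodes the catalytic subunit of complex IV, the chromosome 1 copy Gm29216 begins inside the gene and differs by T1056A, C1057T, A1059G, A1060G, C1062A and A1066T before it runs on without a difference to the end of the 492 bases compared. The first 48 bases of that part (chrM:6381-6428 and chr1:24616150-24616197) are shown with the differing bases in capitals.
mt-Co1: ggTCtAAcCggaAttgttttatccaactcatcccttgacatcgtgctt
Gm29216: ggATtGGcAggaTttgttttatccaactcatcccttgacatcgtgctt

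Low counts went with these copies. For mt-Co2, mt-Atp6, mt-Co3, mt-Nd3 and mt-Nd4l, at least 98.0% of windows were shared, and no mouse had more than 27 counts on any of them. mt-Nd3 had a median of 0 counts over the 27 mice and a highest count of 3. mt-Atp6, the membrane subunit of complex V, had 6 to 23 counts. In each library 11.1 M to 16.4 M alignments (M, 1000000) were set aside as not unique. How many of them come from these 5 genes was not tested, and the counts of the 5 are not read as their levels. The pseudogenes received few counts themselves. Among the nuclear genes with shared windows, the 5 with the highest mean counts were Gm13340, a copy of mt-Co1 on chromosome 2 with 49 to 103 counts, Gm10925 (6 to 35), Gm28438 (7 to 37), Gm13341 (2 to 16) and Gm28661 (2 to 15). All of those in the tables together held 114 to 225 counts per mouse.

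A pair of partly copied genes had large counts. mt-Co1 had 51.1% of its windows in common with nuclear copies and 89314 to 153987 counts, and mt-Nd4, of complex I, had 62.2% in common and 7628 to 15022 counts. The piece of chromosome 1 between the copies of mt-Co2 and mt-Atp6 carries no annotated transcript, so whether mt-Atp8 is copied there was not measured. The starts of these copies lie 914 bases apart, as on chromosome M, so the piece has the length of the mitochondrial stretch that holds mt-Atp8. mt-Atp8 itself had 2689 to 4658 counts.

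**Figure D1:**
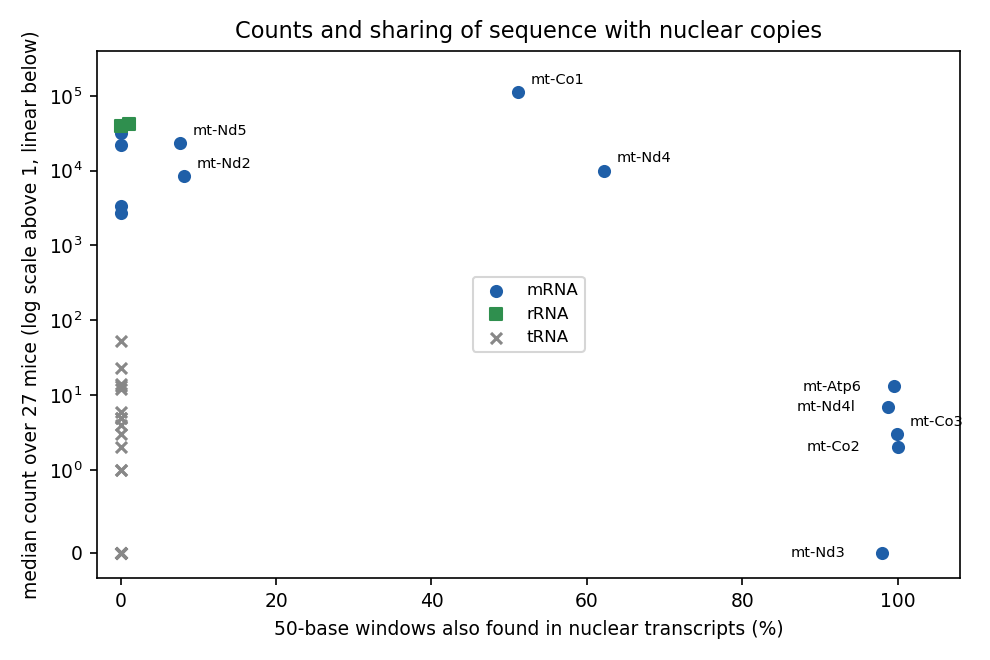
Median count over 27 mice (vertical axis, log scale above 1 and linear below) against the percentage of a gene's 50-base windows that also occur in nuclear transcripts (horizontal axis), for 13 mRNA genes (circles), 2 rRNA genes (squares) and 22 tRNA genes (crosses). The 5 mRNA genes at the right, with 98.0% or more of windows shared, lie at medians of 0 to 13 counts, and mt-Co1 and mt-Nd4, in the middle, keep high counts.

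The 10 well counted genes, defined as those with at least 1000 counts in every mouse, made up at least 99.9% of the mitochondrial counts of each library. They are the rRNA genes mt-Rnr1 (small ribosomal subunit) and mt-Rnr2 (large ribosomal subunit) and the mRNAs mt-Nd1, mt-Nd2, mt-Nd4, mt-Nd5 and mt-Nd6 (complex I), mt-Cytb (complex III), mt-Co1 (complex IV) and mt-Atp8 (complex V). The 22 tRNA genes together had 81 to 262 counts per mouse, with a median of 139. mt-Tl1, a leucine tRNA, had the most, with 31 to 77 counts, followed by mt-Te (glutamate, 9 to 41), mt-Tm (methionine, 5 to 37), mt-Tw (tryptophan, 6 to 31) and mt-Ti (isoleucine, 1 to 20). In 14 tRNA genes the median was under 5 counts, and mt-Tf, the phenylalanine tRNA, had 0 counts in all 27 mice. A count of 0 allows up to 3 counts, which is 0.175 to 0.245 CPM (counts per 1000000 counts on genes), depending on the library. tRNAs are 59 to 75 bases long, and their counts were too low for a dose comparison of most of them.

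Depth was 12.26 M to 17.14 M counts on genes per mouse. The dosing was visible in Cyp1a1, the classical target of the aryl hydrocarbon receptor, whose normalised levels in CPM (with library sizes scaled by the trimmed mean of M-values) were 0.21, 0 and 0.14 in the vehicle mice and 1062, 1881 and 2279 at 30 µg/kg. Among the TCDD induced genes listed as a check of dosing, 4 of 4 were called higher at 30 µg/kg. Of the marker lists, that of absorptive enterocytes summed to 23319 to 44716 CPM over the 27 mice, secretory cells to 11910 to 18539 and leukocytes to 1227 to 2361. Stem and dividing crypt cells summed to 209 to 570 CPM, fibroblasts and endothelium to 64.1 to 197 and smooth muscle to 37.8 to 445, whereas erythrocyte markers stayed at or under 1.63 CPM. The library index in each file name was read in the order of the samples, and its first or second appearance is called index use here. The first use held 16 mice, all of the vehicle to 0.3 µg/kg groups and mouse 41 at 1 µg/kg. The second use held the other 11 mice. Index use was inferred from the file names alone. Effects of dose and of index use cannot be told apart at 3, 10 and 30 µg/kg. The 4 lowest doses share the first use with vehicle, and the 1 µg/kg group holds mice of both.

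Mouse 65 differed from mice 67 and 68 of the same 30 µg/kg group, and the main values at that dose are given with and without it. Its smooth muscle markers summed to 401 CPM, against 98.7 and 52.8 in mice 67 and 68 and 137, 42.4 and 62.4 in the vehicle mice. Its 12 absorptive enterocyte markers summed to 23319 CPM, against 44716 and 40678 in mice 67 and 68 and 25947 to 28285 in the vehicle mice. None of the 8 smooth muscle markers was at 0 in all mice. In a bulk library, fewer cells of a type and less RNA per cell cannot be told apart.

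The share of the counts that fell on the mitochondrial genome had group means between 1.91% and 2.39%, and mouse 65 had the highest value. In vehicle mice 2, 3 and 4 the 37 genes took 1.92%, 1.93% and 1.87% of the counts on genes. At 30 µg/kg they took 3.15%, 2.08% and 1.94% in mice 65, 67 and 68. The treated mice all lay above the vehicle mice, although mouse 68 did so by little. The group means were 1.91% ± 0.0295 (SD, n = 3) in vehicle and 2.39% ± 0.663 (SD, n = 3) at 30 µg/kg, and without mouse 65 the difference fell from 0.486 to 0.106 percentage points. The exact permutation test (two-sided) gave p = 0.1 at 30 µg/kg, the smallest p that 3 against 3 allows, and 0.2 after adjustment over the 8 doses.

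The other doses did not follow the order of dose. At 0.3 µg/kg the shares were 2.07%, 2.29% and 2.39%, and at 10 µg/kg they were 2.52%, 2.12% and 2.06%. Both groups lay above all vehicle mice, as did the 0.01 µg/kg group with a mean of 2.08% ± 0.113 (SD, n = 3), each again with an exact p = 0.1 and 0.2 adjusted. At 0.03, 0.1, 1 and 3 µg/kg the groups overlapped with vehicle, with group means of 2.02%, 1.96%, 2.12% and 2.05% and single mice between 1.83% and 2.22%. Smooth muscle markers also varied within these groups. They summed to 81.4, 251 and 280 CPM in the 3 mice at 0.3 µg/kg, in the order of their shares above, and to 297, 445 and 72.1 CPM at 10 µg/kg. At 0.01 µg/kg the sums were 143, 246 and 204 CPM in mice 9, 11 and 14, whose shares were 2.187%, 1.963% and 2.097%. In that group the mouse with the lowest sum had the highest share. At 10 µg/kg all 8 of these markers were higher at an unadjusted edgeR p under 0.05, none passed after adjustment, and their median log2 fold change was 1.99. Of all tested genes, 9.45% were higher by that unadjusted rule. The part of smooth muscle in the shares was not tested.

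Most of the counts came from the mRNAs. They took 1.37% ± 0.109 of the counts in vehicle mice and 1.69% ± 0.487 at 30 µg/kg (SD, n = 3 each), where mice 65, 67 and 68 had 2.25%, 1.47% and 1.35% and overlapped with the vehicle range of 1.29% to 1.49% (exact permutation p = 0.3). Without mouse 65 the difference in the mRNA share fell from 0.322 to 0.0433 percentage points. At 0.3 µg/kg the mRNA share was 1.69% ± 0.113 and at 10 µg/kg 1.65% ± 0.131 (SD, n = 3), both without overlap with vehicle (exact p = 0.1, adjusted p = 0.4). The 2 rRNAs took 0.537% ± 0.0905 in vehicle and 0.701% ± 0.176 at 30 µg/kg (SD, n = 3), with an exact p of 0.2, and without mouse 65 the difference fell from 0.164 to 0.0627 percentage points. In vehicle mouse 3 the rRNA share was 0.432%, against 0.594% and 0.584% in mice 2 and 4. The counts on rRNA per count on mRNA were 0.447, 0.290 and 0.453 in vehicle mice, 0.402, 0.411 and 0.439 at 30 µg/kg, and between 0.290 and 0.494 over all mice. The tRNA share was 0.000933% in vehicle and 0.00111% at 30 µg/kg, with an exact p of 1, and the difference reversed to -0.000229 percentage points without mouse 65.

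**Figure D2:**
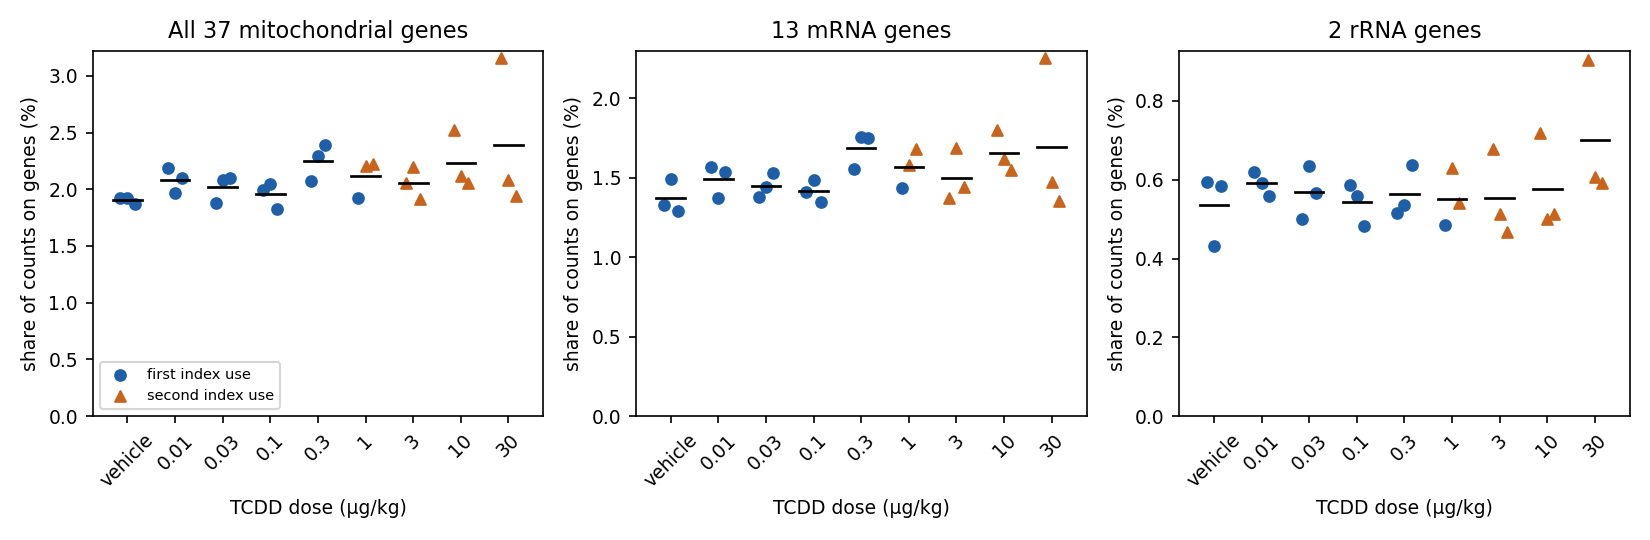
Percentage of the counts on genes that fell on all 37 mitochondrial genes, on the 13 mRNA genes and on the 2 rRNA genes (vertical axes, from 0) in each mouse by TCDD dose (horizontal axes, µg/kg). Points are mice, circles and triangles the first and second use of the library indexes, and lines group means. Mouse 65, at 3.15% in the left panel, is the highest point, and the vehicle mice sit between 1.87% and 1.93%.

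Trends with dose were weak. Over the 27 mice, the share of all 37 genes had a Spearman's rho of 0.385 with the rank of the dose (permutation p = 0.0486, 0.0972 adjusted over the 4 shares tested) and a Pearson's r of 0.436 (p = 0.0143, 0.03 adjusted, permutation). For the mRNA share rho was 0.396 (permutation p = 0.0424, 0.0972 adjusted) and r was 0.447 (permutation p = 0.015, 0.03 adjusted). For the rRNA share rho was 0.131 and for the tRNA share 0.0018 (permutation p = 0.512 and 0.996), with r of 0.281 and 0.138 (permutation p = 0.158 and 0.502). Without mouse 65, r for all 37 genes was 0.340 (permutation p = 0.0901, 0.18 adjusted) and rho 0.321 (permutation p = 0.11). Leaving out each possible pair of mice among those farthest from the median dose gave r of 0.284 to 0.526 for all genes and 0.279 to 0.581 for mRNAs. Within the 16 mice of the first index use rho was 0.251 for all genes (permutation p = 0.347), and within the 11 mice of the second use it was -0.061 (permutation p = 0.863). For the mRNA share the corresponding rho was 0.412 (permutation p = 0.112) and -0.047 (permutation p = 0.896). Pearson's r for the mRNA share was 0.485 in the first use (permutation p = 0.0551, 0.221 adjusted) and 0.200 in the second (permutation p = 0.594). For all genes r was 0.378 and 0.282 (permutation p = 0.148 and 0.448). The relation over all mice did not pass the test within either index use. Without the vehicle mice, rho for all genes was 0.215 and r 0.352 (permutation p = 0.313 and 0.0848). For mRNAs they were 0.263 and 0.358 (permutation p = 0.218 and 0.0827).

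Levels of the well counted genes per length of gene spanned a 13.7-fold range in vehicle mice, a range that depends on how shared sequence is treated. mt-Co1 was the highest at 4597 ± 316 CPM per kb (SD, n = 3), although 51.1% of its windows are shared with nuclear copies. Whether rRNA was removed from the libraries is not given, so the places of the 2 rRNAs are those in the libraries and not in the tissue. mt-Rnr1 followed at 2637 ± 462, mt-Rnr2 at 1750 ± 335 and mt-Cytb at 1709 ± 100 CPM per kb. The last of these overlapped with mt-Rnr2 in vehicle mice, and mt-Rnr2 was the higher of the pair in only 11 of the 27 mice. mt-Nd1 had 1430 ± 56.2, mt-Atp8 1152 ± 58.9 and mt-Nd5 795 ± 57.5 CPM per kb. mt-Nd2 (491 ± 36.4) and mt-Nd4 (474 ± 52.0) overlapped, and mt-Nd6, the only mRNA of the minus strand, was the lowest at 335 ± 36.3 CPM per kb (SD, n = 3 for each). Apart from mt-Rnr2 with mt-Cytb and mt-Nd2 with mt-Nd4, neighbours in this order did not overlap in vehicle mice, and their order was the same in 26 or 27 of the 27 mice. Counted instead per 1000 windows that no nuclear transcript shares, the range was 26.3-fold, with mt-Co1 at 9716 ± 668 CPM and mt-Nd6 at 369 ± 40.1 CPM (SD, n = 3). On that scale mt-Nd4, 62.2% of whose windows are shared, stood at 1300 ± 143 CPM (SD, n = 3). It was then above mt-Nd5 (884 ± 63.9) and mt-Nd2 (561 ± 41.6) without overlap, so its place beside mt-Nd2 holds only per length of the whole gene. mt-Atp8 (1516 ± 77.6) and mt-Nd1 (1507 ± 59.3) overlapped on that scale, which does not see copies outside annotated transcripts.

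**Figure D3:**
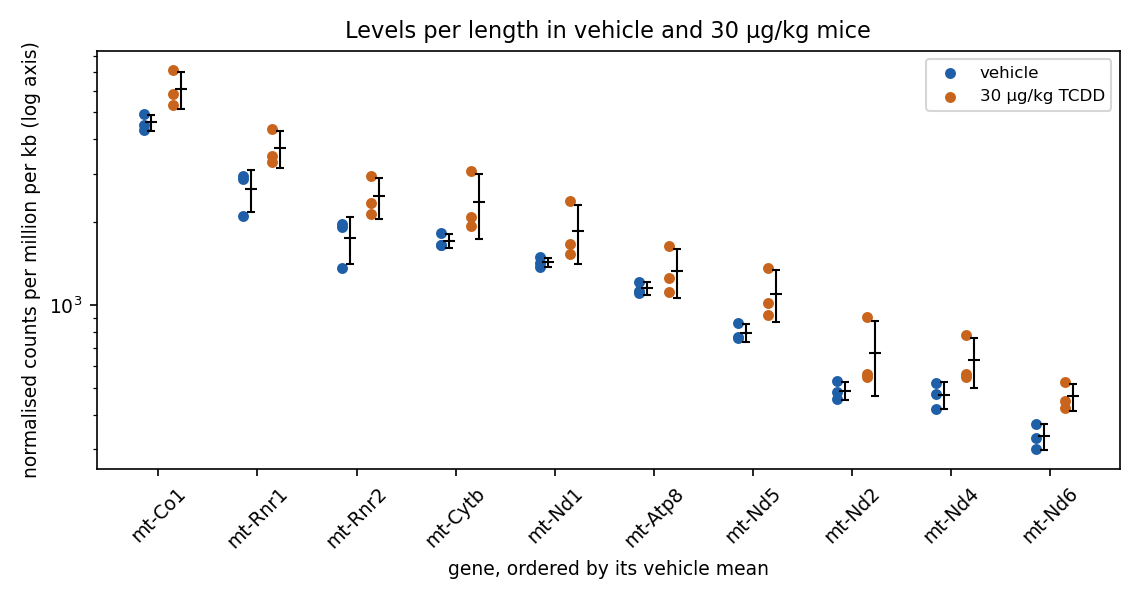
Normalised CPM per kb of gene length (vertical log axis) of the 10 well counted genes, ordered by their vehicle mean (horizontal axis), in vehicle and 30 µg/kg mice. Points are mice and bars the mean ± SD (n = 3). mt-Co1 is at the top with a vehicle mean of 4597 and mt-Nd6 at the bottom with 335, and in each gene the highest of the 30 µg/kg points is mouse 65.

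For differential expression, each dose was compared with vehicle by edgeR's quasi-likelihood test over 16741 genes, and a gene was called at an adjusted p (Benjamini-Hochberg) of at most 0.05 and a change of at least 1.5-fold. Of the 37 mitochondrial genes, 18 passed the filter on low counts, the 10 well counted genes, mt-Atp6, mt-Nd4l and 6 tRNA genes. None of the 18 was called at any dose by edgeR, and none by DESeq2. The share of all tested genes called was 0% at 0.01, 0.03, 0.1 and 0.3 µg/kg, 0.591% at 1 µg/kg, 1.11% at 3 µg/kg, 2.53% at 10 µg/kg and 9.4% at 30 µg/kg.

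Without the limit on fold change, 6 of the 18 had an adjusted p of at most 0.05 at 30 µg/kg, all higher. Of all tested genes, 17.8% passed in either direction, and 8.49% of all tested genes passed lower. At every lower dose the number was 0, where 0% of all tested genes passed up to 0.3 µg/kg, 0.902% at 1 µg/kg, 1.7% at 3 µg/kg and 3.8% at 10 µg/kg. At an unadjusted p under 0.05 the numbers of mitochondrial genes were 0, 0, 0, 6, 0, 1, 7 and 11 from the lowest to the highest dose, all of them higher. The background for that rule in either direction was 4.18%, 3.53%, 6.19%, 7.45%, 14.1%, 13.7%, 17.4% and 31.2% of all tested genes in the same order. For genes that were higher it was 2.43%, 1.63%, 2.99%, 3.96%, 7.05%, 6.85%, 9.45% and 15.9%. The 8 comparisons share the 3 vehicle mice and are not independent of each other.

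Of the 5 well counted complex I mRNAs, 4 were higher at 30 µg/kg at an adjusted p of at most 0.05, none of them past the 1.5-fold limit. mt-Nd6 had 193, 156 and 172 CPM in vehicle mice and 273, 233 and 221 CPM in mice 65, 67 and 68, so the groups did not overlap on this scale. Without the scaling of library sizes they did, with mouse 68 at 194.6 CPM and vehicle mouse 2 at 196.2 CPM. The log2 fold change of mt-Nd6 was 0.48 ± 0.12 (SE), with an edgeR adjusted p of 0.00967. mt-Nd5 had 1383, 1571 and 1397 CPM in vehicle and 2495, 1855 and 1680 CPM at 30 µg/kg, a log2 fold change of 0.47 ± 0.13 (SE) and an edgeR adjusted p of 0.0126. mt-Nd4 had 580, 723 and 655 CPM in vehicle and 1076, 773 and 758 CPM at 30 µg/kg, where mice 67 and 68 lay only just above vehicle mouse 3 (log2 fold change 0.41, edgeR adjusted p = 0.0208). Without the scaling of library sizes these mice lay below mouse 3, at 683 and 668 against 750 CPM. mt-Nd2 had 475, 550 and 504 CPM in vehicle and 943, 584 and 569 CPM at 30 µg/kg (log2 fold change 0.46, edgeR adjusted p = 0.0405). The remaining complex I mRNA, mt-Nd1, had 1361, 1426 and 1319 CPM in vehicle and 2276, 1595 and 1469 CPM at 30 µg/kg, and its log2 fold change of 0.38 did not pass (edgeR adjusted p = 0.0595).

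mt-Cytb of complex III and mt-Co1 of complex IV also passed on adjusted p but not on fold change. mt-Cytb had 1892, 2088 and 1886 CPM in vehicle and 3522, 2386 and 2211 CPM at 30 µg/kg, a log2 fold change of 0.47 ± 0.14 (SE) and an edgeR adjusted p of 0.0213. mt-Co1 had 6966, 7644 and 6697 CPM in vehicle and 11029, 8996 and 8194 CPM at 30 µg/kg, a log2 fold change of 0.41 ± 0.12 (SE) and an edgeR adjusted p of 0.0237. In both genes the treated mice lay above all vehicle mice on these scaled levels, and mouse 65 was the highest. Without the scaling of library sizes, mouse 68 fell within the vehicle range in both genes. It had 7222 CPM of mt-Co1 (vehicle 6698 to 7932) and 1949 CPM of mt-Cytb (vehicle 1886 to 2166). Mouse 67 also fell within that range for mt-Cytb, at 2109 CPM. mt-Atp8 of complex V had 226, 230 and 249 CPM in vehicle and 334, 255 and 228 CPM at 30 µg/kg, which overlapped (log2 fold change 0.21, edgeR adjusted p = 0.288).

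The rRNAs had the largest estimates of the well counted genes and the widest spread in vehicle mice. mt-Rnr1 had 2738, 2010 and 2806 CPM in vehicle and 4152, 3153 and 3328 CPM at 30 µg/kg, a log2 fold change of 0.49 ± 0.17 (SE) whose edgeR adjusted p of 0.05001 fell just outside the limit. mt-Rnr2 had 3112, 2157 and 3034 CPM in vehicle and 4670, 3706 and 3395 CPM at 30 µg/kg (log2 fold change 0.50 ± 0.19, edgeR adjusted p = 0.065). Mouse 3 was the lowest vehicle mouse for both rRNAs and the highest for the mRNAs mt-Nd1, mt-Nd2, mt-Nd4, mt-Nd5, mt-Cytb and mt-Co1.

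Low counts limited the remaining genes. mt-Nd4l and mt-Atp6, with at most 27 counts, had estimates of 1.02 ± 0.45 and 0.75 ± 0.38 on the log2 scale (SE) at 30 µg/kg, with edgeR adjusted p of 0.12 and 0.185. The named tRNAs had log2 fold changes of 0.13 (mt-Tl1), -0.39 (mt-Te), 0.71 (mt-Tm), 0.61 (mt-Tw) and 0.43 (mt-Ti) at that dose, with standard errors between 0.25 and 0.69, and none passed.

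The number of genes past the adjusted p at 30 µg/kg varied with mouse 65 and with the samples in the fit. Without mouse 65 the median log2 fold change of the 10 well counted genes fell from 0.46 to 0.22 and only mt-Nd6 passed (0.35, edgeR adjusted p = 0.0471), while the share of all tested genes that passed went from 17.8% to 26.8%. Without vehicle mouse 2, or without vehicle mouse 4, mt-Nd6 was again the only 1 of the 10 to pass. In those fits 12% and 8.73% of all tested genes passed. Scaling by library size alone moved the median of all genes from 0.02 to -0.11 on the log2 scale, and the 10 genes stood 0.47 above that median, compared with 0.44 above it in the main fit. Only mt-Nd6 passed under that scaling, where 19.6% of all tested genes did. With index use as a covariate, which is estimated from the 1 µg/kg group alone, the median of the 10 genes was 0.19 and none passed. The share of all tested genes that passed also fell, to 2.96%. In a fit of only the 6 mice compared the median was 0.46 and again none passed, with 5.05% of all tested genes passing. DESeq2 over all mice passed 9 of the 10 and 18.5% of all tested genes.

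Over the dose series the 10 well counted genes were displaced together. Their median log2 fold change was 0.15, 0.06 and 0.06 at 0.01, 0.03 and 0.1 µg/kg, then 0.28 at 0.3, 0.18 at 1, 0.23 at 3, 0.29 at 10 and 0.46 at 30 µg/kg. The median over all tested genes lay between -0.0031 and 0.0192 at every dose. All 10 estimates were above 0 at each dose from 0.3 µg/kg upwards, and 9 of 10 were at each of the 3 lower doses. Over the 18 that passed the filter the median was 0.47 at 30 µg/kg. mt-Nd2 had the highest mRNA estimate of the 10 at 0.3 µg/kg (0.36 ± 0.15, edgeR adjusted p = 0.608) and at 10 µg/kg (0.37 ± 0.15, edgeR adjusted p = 0.2).

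**Figure D4:**
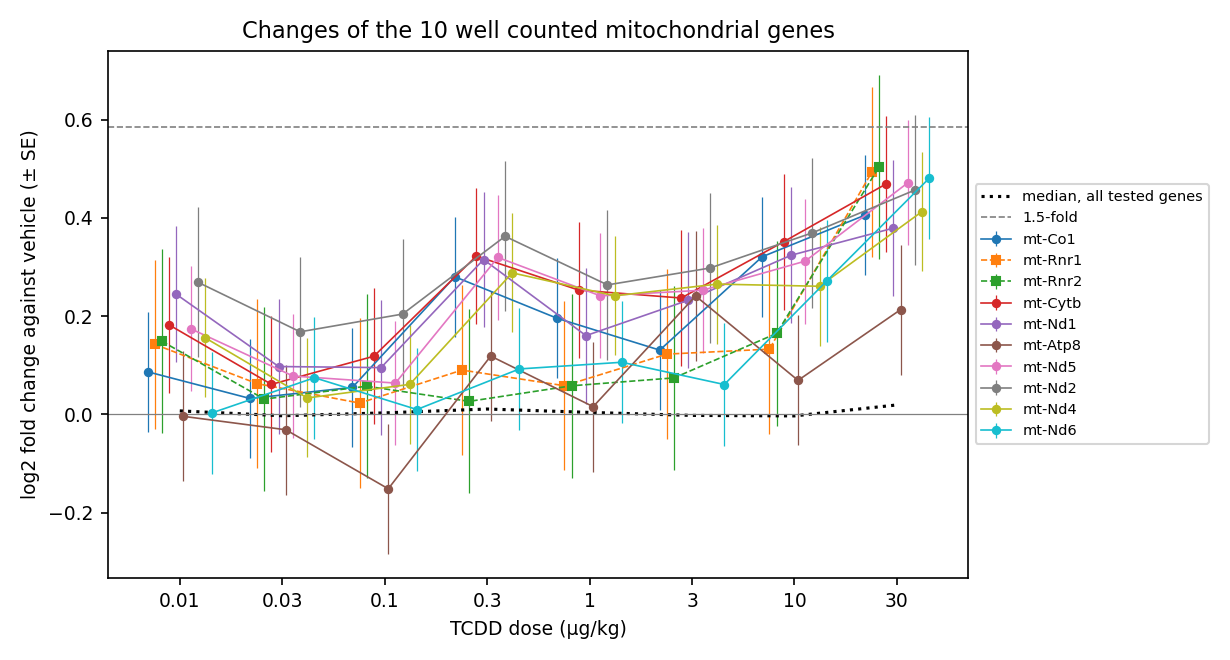
Log2 fold change against vehicle (vertical axis, ± SE) of the 10 well counted genes at each TCDD dose (horizontal axis, µg/kg), with mRNAs as circles, rRNAs as squares, the median of all 16741 tested genes as a dotted line and the 1.5-fold limit as a dashed line. The estimates lie between 0.21 and 0.50 at 30 µg/kg, under the dashed line at every dose.

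mt-Co1 made up more of the mitochondrial mRNA counts than any other gene. It held 50.0% to 55.0% of the mRNA counts over the 27 mice, mt-Cytb 14.0% to 16.0%, mt-Nd5 10.3% to 11.7% and mt-Nd1 9.03% to 11.2%. mt-Nd4 held 4.43% to 5.38%, mt-Nd2 a median of 4.01% and at most 4.30%, mt-Atp8 1.38% to 2.32% and mt-Nd6 1.01% to 1.48%. Between vehicle and 30 µg/kg, 2 of the 8 well counted mRNAs had groups that did not overlap. mt-Nd5 went from 10.8% ± 0.182 to 11.1% ± 0.206 and mt-Atp8 from 1.75% ± 0.169 to 1.51% ± 0.0236 (SD, n = 3 each). Each had an exact permutation p of 0.1, the smallest possible, and 0.65 after adjustment over the 13 mRNAs. Without mouse 65 their differences were 0.262 and -0.244 percentage points, compared with 0.370 and -0.241 with it. mt-Co1 held 52.8% ± 0.696 in vehicle and 52.5% ± 2.01 at 30 µg/kg (SD, n = 3, exact p = 1), and without mouse 65 its difference turned from -0.258 to 0.891 percentage points.

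Respiratory complexes join subunits of both genomes, and 73 of the 78 nuclear subunit genes tested had estimates below 0 at 30 µg/kg, compared with 48.2% of all tested genes. Of these 78 genes of complexes I to V, 0 were called higher and 1 lower. That gene was Ndufb6 of complex I, with a log2 fold change of -0.74 ± 0.14 (SE), 13.4 ± 0.952 CPM in vehicle and 7.98 ± 0.842 CPM at 30 µg/kg (SD, n = 3, edgeR adjusted p = 0.000808). With no limit on fold change, 16 of the 78 (20.5%) passed, all lower, against the 17.8% of all genes given above, of which 8.49% were lower. The median log2 fold change was -0.18 for the 78 nuclear genes, 0.43 for the 8 well counted mitochondrial mRNAs and 0.02 for all genes.

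Complex by complex, the nuclear medians were -0.19 for 36 genes of complex I, -0.14 for 4 of complex II, -0.20 for 9 of complex III, -0.19 for 12 of complex IV and -0.14 for 17 of complex V. The numbers that passed on adjusted p alone were 8, 0, 4, 2 and 2. The count of 16 varied with the mice in the fit. Without mouse 65 it was 48 (median -0.31, 8 called lower), where 14.6% of all genes passed lower. It was 5 without mouse 67 (median -0.12), 6 without mouse 68, 10 without vehicle mouse 2, 6 without vehicle mouse 4 and 2 with only the 6 mice compared. Of all genes, 3.55%, 5.45%, 6.08%, 3.93% and 2.12% passed lower in these fits, in the same order. Under library size scaling all 78 estimates were below 0, and the median lay 0.19 below that of all genes, compared with 0.20 below it in the main fit. With index use as a covariate the median was -0.17 and 1 gene passed, lower, where 1.13% of all genes passed lower. At 10 µg/kg the nuclear medians lay between -0.0848 (complex I) and -0.0163 (complex IV), and 8 of the 78 genes were lower at an unadjusted edgeR p under 0.05, compared with 7.9% of all genes, none of them past the adjusted limit.

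**Figure D5:**
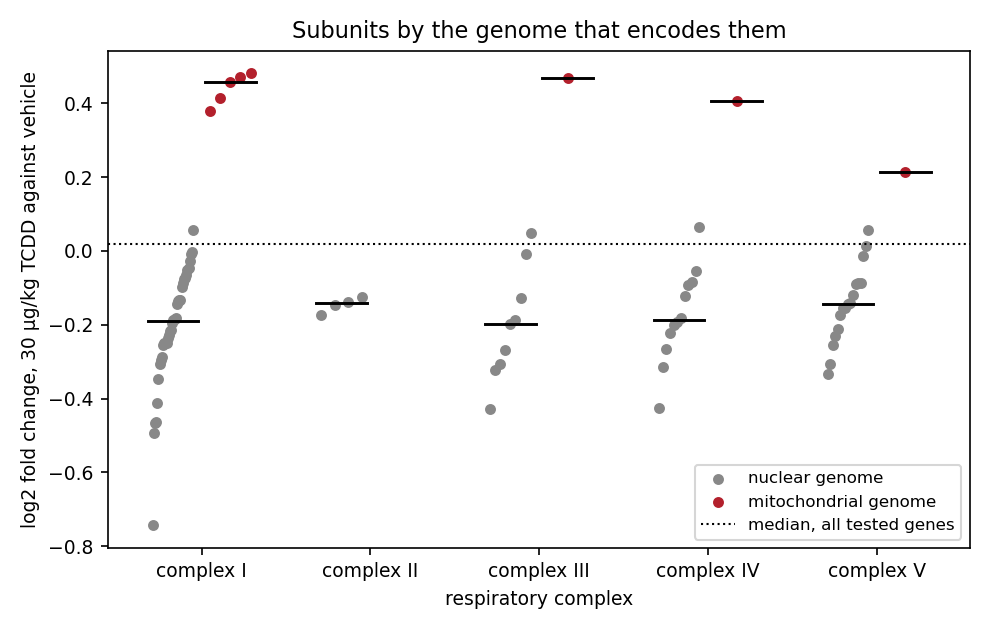
Log2 fold change at 30 µg/kg against vehicle (vertical axis) of each subunit gene of respiratory complexes I to V (horizontal axis), in grey for the nuclear and in red for the mitochondrial genome, with black bars for medians and a dotted line for the median of all tested genes. The 8 red points lie between 0.21 and 0.48, and the grey medians lie between -0.20 and -0.14.

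Of 100 tested nuclear genes that regulate or serve the mitochondrial genome, 9 were called at 30 µg/kg, near the 9.4% of all tested genes. Of 12 tested regulators of mitochondrial biogenesis, 2 were called higher at 30 µg/kg and 0 lower, with a list median of -0.02. Ppargc1a, a coactivator that promotes mitochondrial biogenesis, rose from 31.1 ± 6.49 to 77.4 ± 30.3 CPM (SD, n = 3, 2.49-fold, edgeR adjusted p = 0.00103). Esrrg, a nuclear receptor that works with it, rose from 2.31 ± 0.457 to 8.46 ± 2.49 CPM (SD, n = 3, 3.65-fold, edgeR adjusted p = 8.69e-06). Without mouse 65 both were called, with log2 fold changes of 1.48 for Ppargc1a and 1.66 for Esrrg. In that fit 2 other regulators were called lower, against 7.87% of all genes. With index use as a covariate the call of Ppargc1a was lost (log2 fold change 1.47, edgeR adjusted p = 0.0765).

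Among 16 genes for transcription and replication of mitochondrial DNA, none was called at 30 µg/kg by edgeR or DESeq2. In edgeR 1 was higher and 1 lower on adjusted p alone, 1 was higher and 3 lower at an unadjusted p under 0.05, and the median was -0.02. Without mouse 65, 2 of them were called lower, and without vehicle mouse 3, 1 was called higher. In those fits 14.7% and 9.47% of all tested genes were called. Of 27 genes for processing, stability and decay of mitochondrial RNA, 1 was called lower, and the median was -0.35. It was Supv3l1, the helicase of the mitochondrial RNA degradation complex, at 14.7 ± 2.76 CPM in vehicle and 9.73 ± 2.71 CPM at 30 µg/kg (SD, n = 3, edgeR adjusted p = 0.0144). On adjusted p alone 6 of the 27 passed, all lower, against 8.49% of all genes. Without mouse 65, 15 of the 27 passed lower, 11 of them called, against 14.6% of all genes. The number that passed lower was 0 without mouse 67, 4 without mouse 68, 1 without vehicle mouse 4 and 0 with only the 6 mice compared. Of all genes, 3.55%, 5.45%, 3.93% and 2.12% did so, in that order. Of 45 factors for import, assembly and translation, 6 were called lower and 0 higher (median -0.21), compared with 3.98% of all genes called lower. The number called lower was 12 without mouse 65 (7.87% of all genes), 0 without mouse 67 (2.06%) and 1 without mouse 68 (3.04%). It was 1 without vehicle mouse 4 (2.33%) and 0 with only the 6 mice compared (1.77%). The 4 with the smallest adjusted p were Tomm40 (the channel of the outer membrane translocase, 0.606-fold), Gfm1 (a mitochondrial elongation factor, 0.650-fold), Timm23 (the channel of the inner membrane translocase, 0.642-fold) and Ndufaf5 (an assembly factor of complex I, 0.603-fold), with edgeR adjusted p between 0.00237 and 0.0124. With index use as a covariate, Supv3l1 and these 4 kept estimates below 0 and none was called, where 1.08% of all genes were called lower. Of the 45 factors, 1 was called higher and 0 lower in that fit, where 2.88% of all genes were called. Their median was -0.06, with 25 estimates below 0, compared with 33 in the main fit. The median of the 27 genes was -0.19 there, with 20 estimates below 0, compared with 22.

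Some markers of cell types were called at 30 µg/kg, where 9.4% of all tested genes were called and 3.98% were called lower. Of 12 absorptive enterocyte markers, 2 were called higher (Sis, sucrase-isomaltase, 2.64-fold, and Slc10a2, the apical bile acid transporter, 1.68-fold) and 1 lower (Fabp6, the ileal bile acid binding protein, 0.520-fold). Of 7 secretory markers 2 were called higher, Chgb (2.28-fold) and Chga (2.14-fold), both of enteroendocrine cells. Of 5 markers of stem and dividing cells 2 were called lower, Lgr5 (0.332-fold) and Top2a (0.639-fold), and of 11 leukocyte markers 1 was, the plasma cell gene Jchain (0.328-fold). None of the 8 smooth muscle, 7 fibroblast and endothelium, 1 tested erythrocyte and 2 tested heart and muscle markers was called by edgeR or DESeq2, or passed on adjusted p alone. Without mouse 65, 4 enterocyte markers were called higher and 4 stem and dividing cell markers lower, 2 fibroblast and endothelium markers were called lower, and the counts for secretory cells and leukocytes were as above. In that fit 14.7% of all tested genes were called, and 7.87% were called lower. At an unadjusted edgeR p under 0.05 in the fit of all mice the numbers were 0 for smooth muscle, 1 higher and 2 lower for fibroblasts and endothelium, 0 for erythrocytes and 1 higher for heart and muscle. By that rule 15.9% of all tested genes were higher and 15.4% lower. The median log2 fold change of the smooth muscle markers was 1.21 with mouse 65 and -0.30 without it. The part of any of these cell types in the mitochondrial values was not tested.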

How the data were processed

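The kit was Ovation Mouse RNA-Seq System 1-16, and DNA was digested. The submitters' processing notes name FastQC 0.11.3, Trimmomatic 0.33, TopHat2 2.1.0, SAMtools 1.2.0, HTSeq 0.6.1 and DESeq, with build GRCm38. For each mouse the authors deposited a table of raw read counts by Ensembl gene, without normalization. Strand and overlap options, read length and removal of rRNA are not given in the sources used here. Closing rows that name no gene were left out, of which reads on no feature were 44.5% to 49.5% and reads on several features 0.607% to 1.02% of reads aligned to 1 place.

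Symbols, positions and transcripts came from GENCODE M21 (GRCm38). Shares are percentages of all counts on genes, compared by exact permutation tests, with trends from 100000 permutations. Counts of the 27 mice were fitted in 9 groups with edgeR 4.0.16 in R 4.3.3 (filterByExpr defaults, TMM, quasi-likelihood, adjusted p within each dose), after the steps were tested on simulated data. The standard error is the log2 fold change divided by the square root of F. The precision is that of 3 mice per group. Groups came from the labels. Cages are not given in the labels and mice were co-housed, so cage and dose were not separated, and mice were treated as independent. Mouse numbers are not shared between groups, so no pairing applied.

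Named genes were all 13 mRNAs, both rRNAs, the 5 tRNAs with the highest mean count among those past the filter, up to 4 called genes per nuclear list at 30 µg/kg, and the 5 nuclear copies with the highest mean count. Gm29216 was added to show its sequence. Members and lists were chosen with earlier results of these data known. Alternatives were DESeq2 1.42.0, other scalings, no filter, the 6 mice compared, index use as a covariate, other denominators, fewer genes or mice, and each mouse left out. Python 3.11.15, scipy 1.17.1 and matplotlib 3.10.9 were used.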

Additional observations from a re-analysis of the deposited data

How the results depend on the processing

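Precision was limited by 3 mice per group, and exact tests of the shares could not pass 0.05, so their p-values say nothing on stability. The difference from vehicle in the share of all 37 genes kept its direction at every dose under other denominators, without copied genes, without rRNA genes and without any 1 mouse, and so did that of the mRNA share under those of these alternatives run on it. No mitochondrial gene was called in any other fit except at 30 µg/kg. There, 6 were called with no fold limit, and leaving out 1 mouse gave 0 to 1 (mt-Tp without vehicle mouse 2, mt-Cytb without mouse 68). The number with an adjusted p of at most 0.05 at 30 µg/kg, 6 in the fit reported, was 1 by library size only, 0 with index use as a covariate, 0 with only the 6 mice compared, and 1 to 7 without 1 mouse (2 without vehicle mouse 2, 1 without vehicle mouse 4 and 1 without mouse 65). Of all tested genes, 17.8% passed in the fit reported and 19.6% by library size only. The share was 2.96% with index use as a covariate, 5.05% with only the 6 mice compared and 8.31% to 26.8% without 1 mouse. Among the 10 well counted genes at 30 µg/kg, the log2 fold change of mt-Atp8 reversed to -0.0297 with index use as a covariate.

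The rRNA differences were small and reversed easily. As a share of all reads aligned to 1 place they were -0.000423 percentage points at 0.1 µg/kg and -0.00314 at 1 µg/kg. Without 1 mouse they ranged from -0.0213 to 0.0639 at 0.03 µg/kg, -0.0463 to 0.0358 at 0.1, -0.0258 to 0.0549 at 0.3, -0.0366 to 0.0486 at 1, -0.0458 to 0.0592 at 3 and -0.0303 to 0.0794 at 10 µg/kg, and vehicle mouse 3 reversed all 6 of these doses. Without 1 mouse the tRNA differences ranged from -6.5e-05 to 1.4e-05 percentage points at 1 µg/kg, -3.3e-05 to 0.000192 at 10 and -0.000229 to 0.000442 at 30 µg/kg.

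Spearman's rho with dose in the second index use was -0.061 for all genes, -0.047 for mRNAs and -0.122 for tRNAs, and in the first index use -0.203 for rRNAs. For tRNAs it was -0.045 without vehicle mice and, in a choice made after seeing the data, -0.101 without mouse 65. Without 2 mice its lowest value was -0.078 for rRNAs and -0.142 for tRNAs. Without 1 mouse, the change in the share of mRNA counts at 30 µg/kg ranged from -0.179 to 0.218 percentage points for mt-Nd2, -0.956 to 0.891 for mt-Co1, -0.231 to 0.0976 for mt-Nd4, -0.0461 to 0.152 for mt-Nd6 and -0.176 to 0.694 for mt-Cytb. The causes were not tested.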
